A study of Arabidopsis thaliana with 11 samples.

Results

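The 40 genes described here encode the plastid route that turns pyruvate into fatty acids, and the last steps that turn those fatty acids into seed oil, in Arabidopsis thaliana endosperm. They were chosen by locus, for their place in the route, with earlier results of these data known: plastid pyruvate kinase (3 genes), plastid pyruvate dehydrogenase (6), acetyl-CoA carboxylase (4), the enzymes of the fatty acid synthase (8), acyl carrier proteins (5), acyl-ACP desaturases (6), acyl-ACP thioesterases (3) and modification and oil assembly in the endoplasmic reticulum (5). All 40 were present among the 63867 features of experiment 1 and the 37336 features of experiment 2, and all 40 passed the filter on low counts in both. The libraries were made from polyA RNA of hand-dissected endosperm, pooled from seeds of several crossed plants, with a Landsberg erecta (Ler) mother and a Columbia (Col) father in every cross. In experiment 1, at 6 days after pollination (DAP), wild type (Ler × Col, n = 2 libraries) was compared with endosperm in which both parents carried nrpd1a-4 (n = 3 libraries), called homozygous nrpd1 here. In experiment 2, at 6 to 7 DAP, wild type (Ler × Col, n = 3 libraries) was compared with endosperm from a wild-type Ler mother and an nrpd1a-4 Col father (n = 3 libraries), called paternal nrpd1. NRPD1 is the largest, catalytic subunit of RNA polymerase IV, a plant polymerase whose transcripts are cut into the small interfering RNAs that guide DNA methylation, and the series asked how losing it alters total and parent-specific expression in the endosperm. Because the library kit (TruSeq Stranded against SMARTer V4), the amplification (15 against 12 cycles) and the reads (pairs of 100 bases against single reads of 40 bases) differed with the experiment, each mutant was set against the wild type of its own experiment.

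Fatty acids are made in the plastid. Pyruvate kinase and the pyruvate dehydrogenase complex supply acetyl-CoA, acetyl-CoA carboxylase turns it into malonyl-CoA, and the fatty acid synthase lengthens the chain stepwise while it is held on an acyl carrier protein. Acyl-ACP desaturases place the first double bond, thioesterases release the finished acid, and enzymes of the endoplasmic reticulum desaturate it further, elongate it and store it as triacylglycerol. In Arabidopsis most oil is stored in the embryo, and the endosperm keeps its own oil, in which particular desaturases make unusual monounsaturated acids. WRINKLED1 (WRI1), an AP2 transcription factor, switches on many plastid genes of the route through a sequence called the AW-box.

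The AW-box, CNTNG followed by 7 bases of any kind and then CG, was searched on both strands in the 250 bases before the annotated start of each gene (RefSeq annotation of TAIR10.1), because it is the element through which these genes are best known to be regulated together. It was present in 3 of the 40 windows (7.50%), against 2549 of 27431 windows (9.29%) of all protein-coding nuclear genes. The holders described here are AT4G16155, a dihydrolipoamide dehydrogenase of the pyruvate dehydrogenase complex (window chr4:9157134-9157383, minus strand, match 107 bases before the start), and ACP5, an acyl carrier protein (chr5:9570935-9571184, plus strand, 38 bases). These 2 windows are shown 5′ to 3′ on the gene's strand with the match in capitals:
AT4G16155: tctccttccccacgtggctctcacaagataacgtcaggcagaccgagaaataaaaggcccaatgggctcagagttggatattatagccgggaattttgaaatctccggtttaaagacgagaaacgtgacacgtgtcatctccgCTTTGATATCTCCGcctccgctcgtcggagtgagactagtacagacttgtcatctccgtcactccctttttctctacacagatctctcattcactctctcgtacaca
ACP5: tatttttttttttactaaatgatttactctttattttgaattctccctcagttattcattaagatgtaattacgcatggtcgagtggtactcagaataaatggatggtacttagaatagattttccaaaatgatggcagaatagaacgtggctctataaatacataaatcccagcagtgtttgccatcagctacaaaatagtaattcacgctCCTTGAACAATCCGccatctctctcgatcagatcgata
A match is a string of letters, not a bound site, and the other 37 windows say only that these letters are not in those 250 bases. Sequence after the annotated start of the gene, including the untranslated leader, was not searched. Both genes are described with their groups below.

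Total counts per library were 15926510 to 20817788 in experiment 1 and 24845721 to 35629462 in experiment 2, of which 17.8% to 18.4% and 7.05% to 7.82% had been assigned to an allele. In normalised read counts (CPM), NRPD1 itself was at 47.5 and 39.6 in wild type, and at 26.5, 22.0 and 30.7 with both parents mutant. In experiment 2 the wild-type libraries held 8.41, 10.4 and 10.4 CPM and the paternal nrpd1 libraries 5.89, 1.79 and 4.17. It was lower in every mutant library, with adjusted p = 0.238 and 0.616 by edgeR's quasi-likelihood test. CPM here are scaled by TMM, edgeR's correction for library composition. Some libraries stood apart. Homozygous nrpd1 replicate 2 held 49145 CPM of 9 seed storage protein genes, against 14812 to 22870.5 in the other 4 libraries of experiment 1, and 10495 CPM of 7 oil body protein genes, against 6385 to 6787. In experiment 2, wild type replicate 1 and paternal nrpd1 replicate 2 held more of the short transcripts: against the mean of the 6 libraries, transcripts under 1000 bases had a median log2 difference of 1.52 and 1.19 there, and those over 2000 bases one of -0.67 and -0.63. Their TMM factors were 0.789 and 0.750, against 0.992 to 1.27 in the others. Group ratios are given with and without these libraries. In bulk libraries such as these, fewer cells of a type and less RNA per cell cannot be told apart.

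In wild type the route was strongly expressed. Per kilobase of exon, 32 of the 40 genes in experiment 1 and 29 in experiment 2 lay above the 90th percentile of all genes tested, and the median gene lay at the percentile 97.8 and 96.0. Together the 40 genes took 1.59% and 1.55% of the counts in the wild-type libraries of experiment 1, and 1.58%, 2.01% and 2.01% in those of experiment 2. In experiment 1 the levels were highest for ACP1, at 577 ± 2.36 CPM per kilobase (SD, n = 2), FAD2, the oleate desaturase of the endoplasmic reticulum, at 538 ± 2.40, and ACP2, at 515 ± 15.0. PDH-E1 ALPHA at 498 ± 5.90 and the plastid pyruvate kinase PKP-BETA1 at 493 ± 1.97 came next, and these 2 differed by less than their spread. In experiment 2 the order began with ACP5, ACP1 and ACP2, at 1599 ± 1232, 1247 ± 1019 and 1220 ± 988 CPM per kilobase (SD, n = 3), whose spreads overlap completely because replicate 1 was high in all 3. FAD2 followed at 793 ± 178. The lowest in both experiments was PDAT, which moves an acyl chain from phospholipid to make triacylglycerol, at 11.9 ± 0.0185 and 9.22 ± 2.18 CPM per kilobase, below the minor pyruvate kinase isoform PKp3 at 15.6 ± 0.0263 and 11.3 ± 1.07.

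**Figure D1:**
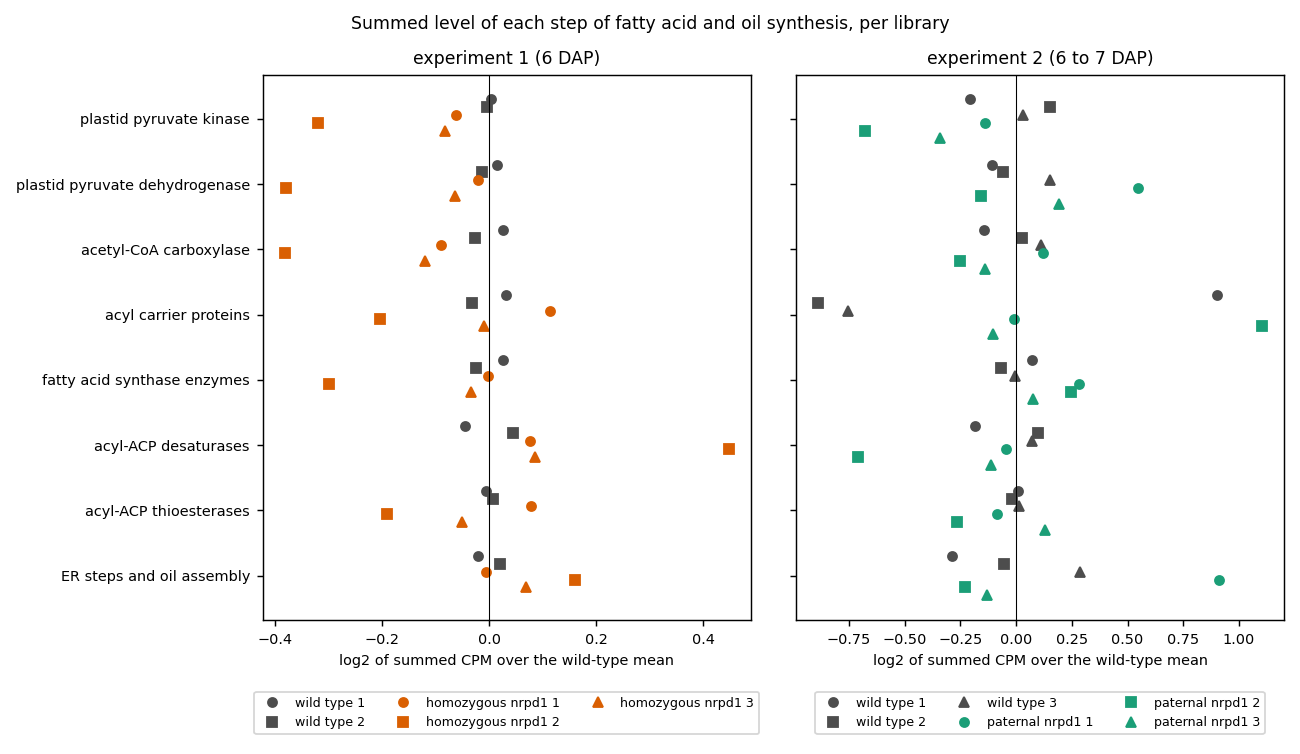
Summed CPM of the genes of each step in each library, as the log2 ratio to the wild-type mean of the same experiment (grey, wild type; orange, homozygous nrpd1; green, paternal nrpd1; the marker shape gives the replicate). Homozygous nrpd1 replicate 2 is the lowest library for the first plastid steps and the highest for the desaturases, and wild type replicate 1 and paternal nrpd1 replicate 2 of experiment 2 are high for the acyl carrier proteins.

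In homozygous nrpd1 the 40 genes differed little from wild type in total expression. None passed an adjusted p of 0.05 in edgeR's quasi-likelihood test with Benjamini-Hochberg adjustment over all 18570 genes tested, of which 0.334% were called. DESeq2 called 0 as well, of 2.53% called over all genes, and 3 members had an unadjusted p under 0.05 in edgeR, where 11.7% of all genes did. The fitted log2 differences, mutant minus wild type, ran from -0.28 to 0.52 with a median of -0.10, against 0.00 for all genes, and 9 were above 0 and 31 below. Without homozygous nrpd1 replicate 2, which was the lowest of the 5 libraries for 29 of the 40 genes, the median was -0.01. The 95% intervals of 39 of the 40 lay within a 2-fold change in either direction. Every mutant library lay below both wild-type libraries for 11 members, where 17.3% of all genes did so, and above both for 2 members, where 15.8% did.

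The sums of the 3 steps that feed carbon into the route lay below wild type in every homozygous nrpd1 library, without a call for any gene. The 3 plastid pyruvate kinase genes summed to 1668 and 1659.7 CPM in the wild-type libraries, against 1592, 1332 and 1571 in the mutant. All 3 mutant libraries lay below wild type, 2 of them by a small margin. PKP-ALPHA, the alpha subunit, was at 535 and 534 CPM against 510.3, 442 and 518, a log2 difference of -0.13 ± 0.10 (SE) with an adjusted p of 0.617 by edgeR. PKP-BETA1, the main beta subunit, was at 1098 and 1092 CPM against 1042, 868 and 1026 (-0.16 ± 0.10 (SE), adjusted p = 0.557). The 6 pyruvate dehydrogenase genes, which encode the E1, E2 and E3 parts of the complex, summed to 2616 and 2564 CPM against 2553, 1991 and 2477. All 6 fitted differences were below 0 and none passed the test. PDH-E1 ALPHA, the alpha subunit of E1, was at 952 and 936 CPM against 879, 748 and 896, and the mutant lay below wild type in every library (-0.17 ± 0.10 (SE), adjusted p = 0.543). AT4G16155, the E3 gene with a match, overlapped between the groups (-0.09 ± 0.12 (SE)). The ratio of group means was log2 -0.15 for pyruvate kinase and -0.15 for pyruvate dehydrogenase, and -0.07 and -0.04 without homozygous nrpd1 replicate 2.

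The 4 acetyl-CoA carboxylase genes, which encode the biotin carboxyl carriers CAC1 and BCCP2, the biotin carboxylase CAC2 and the alpha-carboxyltransferase CAC3, summed to 2154 and 2078 CPM in the wild-type libraries, against 1987, 1623 and 1947 in homozygous nrpd1. Each mutant library lay below wild type for the sum, and for BCCP2, CAC2 and CAC3 singly. CAC2 was at 747 and 726 CPM against 671, 603 and 684, a log2 difference of -0.17 ± 0.09 (SE) with unadjusted p = 0.0902 and adjusted p = 0.479 by edgeR. CAC3 was at 646 and 648 CPM against 622, 463 and 583 (-0.22 ± 0.14 (SE), adjusted p = 0.551). The group ratio was log2 -0.19, and -0.11 without replicate 2.

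Among the fatty acid synthase enzymes, KAS III, which condenses the first acetyl-CoA with malonyl-ACP, stood apart from the other 7. It was at 95.3 and 89.1 CPM in the wild-type libraries, against 143, 106 and 129 in homozygous nrpd1. Every mutant library lay above wild type, a log2 difference of 0.45 ± 0.14 (SE) with unadjusted p = 0.0206 and adjusted p = 0.357 by edgeR. The other 7 fitted differences were below 0 and ran from -0.24 to -0.00. MOD1, the enoyl-ACP reductase that completes each round of elongation, was at 519.8 and 487 CPM against 454, 363 and 462 (-0.24 ± 0.12 (SE), adjusted p = 0.491). FAB1 (KAS II, the condensing enzyme for the last plastid step) and the ketoacyl-ACP reductase AT1G24360 also lay below wild type in every mutant library, by -0.12 and -0.13. KASI, the condensing enzyme of the middle rounds, and EMB3147, the malonyl-CoA:ACP transacylase, overlapped between the groups, as did the hydroxyacyl-ACP dehydratases AT2G22230 and AT5G10160. The 5 acyl carrier proteins summed to 1574 and 1505 CPM against 1666, 1336 and 1529, with overlapping groups for each gene and intervals from -0.68 at the lowest to 0.34 at the highest. With each library's trend on exon length taken out, as described below, ACP1 and ACP5 lay below wild type in every mutant library. ACP2, ACP3 and ACP4 still overlapped, and none was called.

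The desaturase group was the only 1 of the 8 that lay higher in every homozygous nrpd1 library, at 1699 and 1809.9 CPM in the wild-type libraries, against 1849, 2393 and 1861 in the mutant. The ratio of means was log2 0.21, and 0.08 without replicate 2. SSI2, the main stearoyl-ACP desaturase, was at 432 and 449 CPM against 539, 575 and 509.9, above wild type in every mutant library (0.30 ± 0.08 (SE), unadjusted p = 0.0136, adjusted p = 0.323 by edgeR). FTM1, another stearoyl-ACP desaturase, was at 349 and 353 CPM against 353, 732 and 428. Its high value was that of replicate 2. The log2 difference was 0.52 with that library, with an interval from -0.25 to 1.29, and 0.16 without it. AT3G02610 and AT5G16230 (AAD2 and AAD3), palmitoyl-ACP desaturases of the endosperm, were at 175 and 199 against 169.6, 251 and 185 CPM and at 289 and 348 against 302, 414 and 318 CPM. Replicate 2 was again the highest and the other libraries overlapped. SSI2 and KAS III are 2 of 7 members on a deposited list of Col holdout genes for nrpd1, which the experiment 1 samples cite, and their allele counts in homozygous nrpd1 also differed from wild type, as given with the allele shares. Whether the allele composition has a part in their totals was not tested.

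Downstream, FATB, the thioesterase that releases palmitate, and FaTA and AT4G13050, which release oleate, overlapped between the groups, with log2 differences of -0.01, -0.01 and -0.13. PDAT was at 42.4 and 42.3 CPM against 34.5, 31.03 and 38.6, below wild type in every mutant library (-0.28 ± 0.11 (SE), unadjusted p = 0.0450, adjusted p = 0.415 by edgeR). With each library's trend on exon length taken out, as described below, the PDAT difference was -0.20 ± 0.11 (SE), with unadjusted p = 0.127 by edgeR. TAG1 (DGAT1), which adds the third acyl chain, was at 158 and 171 CPM against 145, 165 and 163, with overlapping groups. FAD2, FAD3 (the linoleate desaturase) and KCS18 (FAE1, the elongase that makes very long chain acids of seed oil) overlapped as well, with differences of 0.10, 0.21 and 0.05. In homozygous nrpd1 replicate 2, whose storage and oil body protein transcripts were high, FAD2, KCS18, SSI2, FATB, FTM1, AT3G02610 and AT5G16230 were the 7 members that reached their highest value of the 5 libraries. The part that this library's composition has in those values was not tested. Without it the group ratio was log2 -0.02 for the fatty acid synthase enzymes (-0.11 with it), 0.05 for the acyl carrier proteins (-0.03), 0.01 for the thioesterases (-0.05) and 0.03 for oil assembly (0.08).

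**Figure D2:**
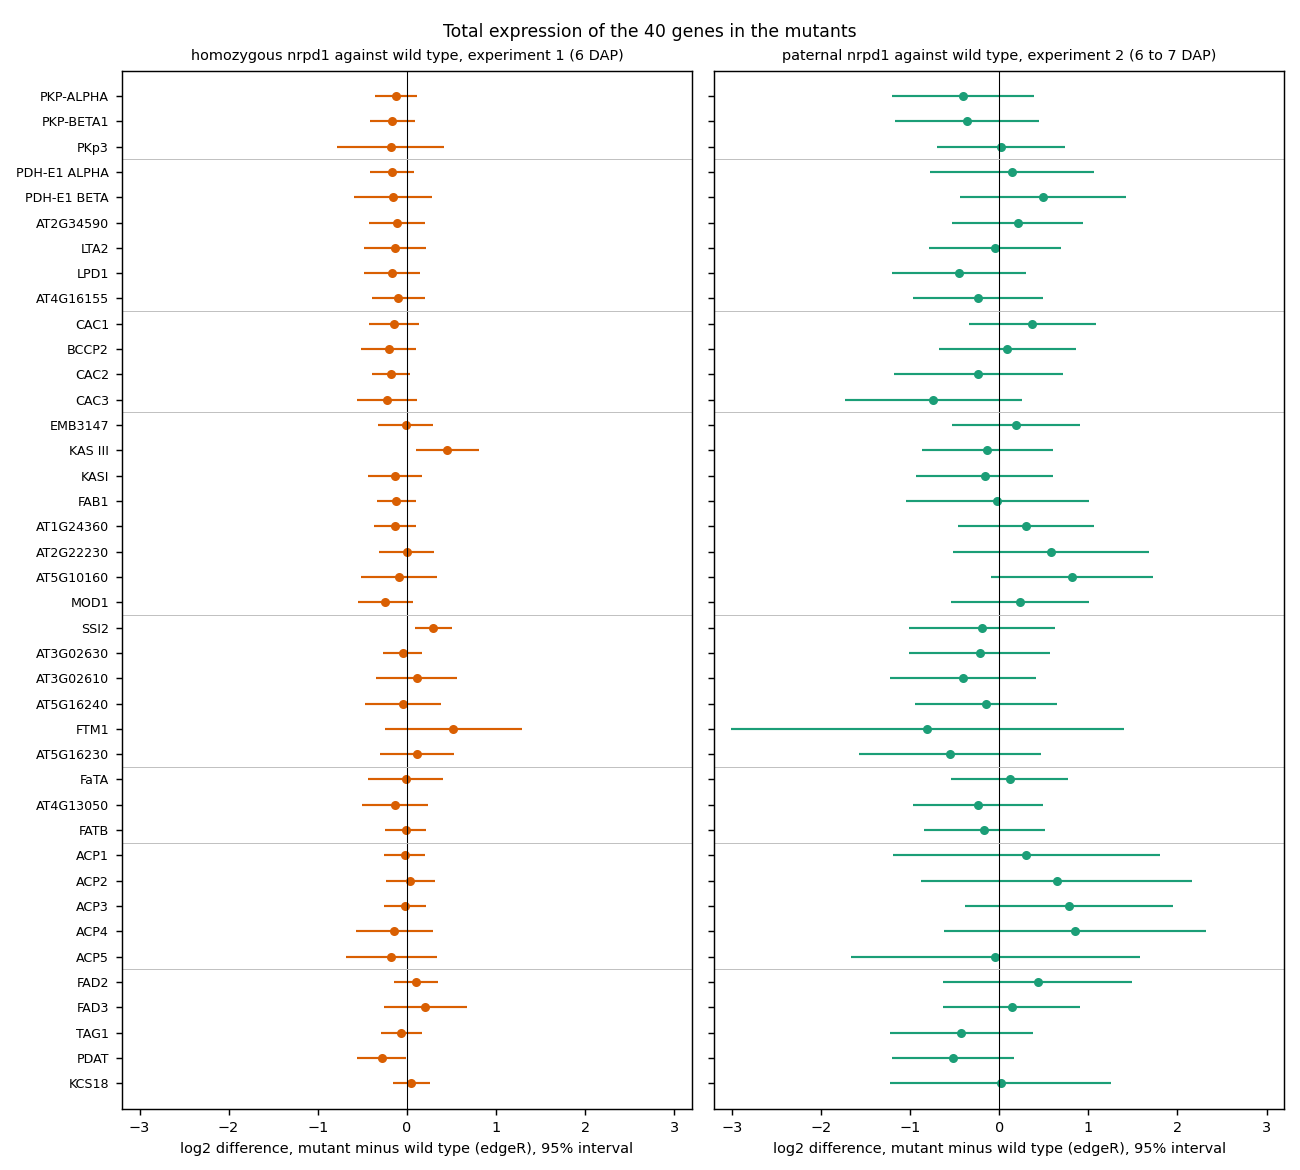
Fitted log2 difference between mutant and wild type for each of the 40 genes, with its 95% interval (edgeR), in homozygous nrpd1 (left) and paternal nrpd1 (right), ordered by step. No gene passed an adjusted p of 0.05 in either comparison, and the intervals are wider in experiment 2, where the median SE was 0.35 against 0.12.

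In paternal nrpd1 no member passed the test of total expression either. EdgeR called 0 of 40 (0.0% of the 18901 genes tested), with 0 at an unadjusted p under 0.05, where 7.91% of all genes were, and DESeq2 called 0 (0.047% of all genes), with 1 unadjusted. The log2 differences ran from -0.81 (FTM1) to 0.85 (ACP4) with a median of -0.03, and 19 were above 0 and 21 below. The intervals were wider than in experiment 1, and only 13 of 40 lay within a 2-fold change in either direction. Every mutant library lay above every wild-type library for CAC1 and EMB3147 (6.58% of all genes did so), and below for LPD1 (6.37%). CAC1 was at 315, 264 and 290.2 CPM in the wild-type libraries, against 410.4, 367 and 347 in paternal nrpd1 (0.37 ± 0.31 (SE), adjusted p = 0.690). LPD1, the E3 subunit of pyruvate dehydrogenase, was at 197, 267 and 216 CPM against 195, 125 and 176 (-0.45 ± 0.33 (SE), adjusted p = 0.658). With each library's trend on exon length taken out, as described below, CAC1, EMB3147 and LPD1 all overlapped between mutant and wild type. Leaving out wild type replicate 1 and paternal nrpd1 replicate 2 gave 0 calls, 4 members at an unadjusted p under 0.05 and a median of 0.04. The share of all genes under that p is not given for this refit, so the 4 cannot be set against it.

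By step, pyruvate kinase summed to 959, 1231 and 1130.5 CPM in the wild-type libraries, against 1005, 691 and 874 in paternal nrpd1, a log2 ratio of means of -0.37 with overlapping groups. Pyruvate dehydrogenase summed to 2908, 3007 and 3486 against 4579, 2812 and 3579 CPM, with the highest value in paternal replicate 1 and overlapping groups. In that library PDH-E1 ALPHA reached 1396 CPM and PDH-E1 BETA 2088, against 835, 853 and 949 and 967, 1040.4 and 1427 in wild type. The fatty acid synthase enzymes summed to 3436, 3116 and 3259 against 3971, 3875 and 3446 CPM. This was the only group of the 8 whose sums did not overlap, with every paternal nrpd1 library above wild type. The margin was small, 3446 against 3436 CPM. The log2 ratio was 0.20, and 0.22 without the 2 libraries that stood apart. With each library's trend on exon length taken out, as described below, each gene of this step overlapped between mutant and wild type. The members of this step were not alike: AT5G10160 was at 517, 289 and 367 CPM against 683, 878 and 508 (0.82 ± 0.39 (SE), unadjusted p = 0.0713, adjusted p = 0.617 by edgeR), while KASI was at 859.7, 898 and 918 against 781, 722 and 883 (-0.16 ± 0.33 (SE)). With that trend taken out the differences were 0.30 ± 0.27 for AT5G10160 and -0.00 ± 0.22 for KASI (SE). Acetyl-CoA carboxylase and thioesterase sums overlapped, with log2 ratios of -0.08 and -0.06. Without those 2 libraries the ratio was -0.33 for pyruvate kinase, 0.33 for pyruvate dehydrogenase (0.22 with them), -0.07 for acetyl-CoA carboxylase, 0.03 for the thioesterases and 0.36 for oil assembly (0.28 with them). The oil assembly group was highest in paternal replicate 1, where FAD2 was at 4082 CPM, against 1702, 1787 and 2523 in wild type and 2024 and 2000.4 in the other mutant libraries.

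Acyl carrier proteins varied widely in experiment 2, and the variation ran across both genotypes. Their sum was 7202, 2084 and 2289 CPM in the wild-type libraries, against 3837, 8292 and 3589 in paternal nrpd1, high in wild type replicate 1 and paternal replicate 2. ACP2 was at 2391, 665 and 651 CPM against 1424, 3176 and 1195 (0.64 ± 0.66 (SE), adjusted p = 0.738), and ACP1 at 1747, 511 and 439.5 against 1003, 1736 and 589 (0.30 ± 0.65 (SE)). ACP5 was at 1935, 452 and 703 against 351, 1622 and 1028 (-0.04 ± 0.70 (SE)). Each gene had a wild-type and a mutant library among its highest, so the groups overlapped. Without these 2 libraries the ratio of the summed group was log2 0.76, against 0.44 with them, from 2 libraries in each group. Their transcripts are among the 7 shortest of the route, and in the same 2 libraries the members' differences from the mean of the 6 libraries followed exon length, with Spearman's rho of -0.65 and -0.57 over the 40 members and -0.79 and -0.77 over 10143 genes. When each library's trend on exon length was taken out of the counts in an added fit, ACP1 stood at 955, 1046 and 714 CPM in wild type, against 1111, 783 and 660.3 in paternal nrpd1, a ratio of 1.68 between the highest and lowest library in place of 3.97. For CAC3, a long transcript, that ratio was 1.49 in place of 3.69. Of the 40 members 32 had a smaller range, the median SE was 0.24 in place of 0.35, and edgeR still called 0 (0 of 18548 genes). FAD2 was the 1 member at an unadjusted p under 0.05 in that fit, where 930 of 18548 genes were. Its log2 difference was 0.81 ± 0.33 (SE), with unadjusted p = 0.0355 and adjusted p = 0.902 by edgeR, and every mutant library lay above wild type. In experiment 1 the same step gave a smaller range for 13 of 40 members.

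**Figure D3:**
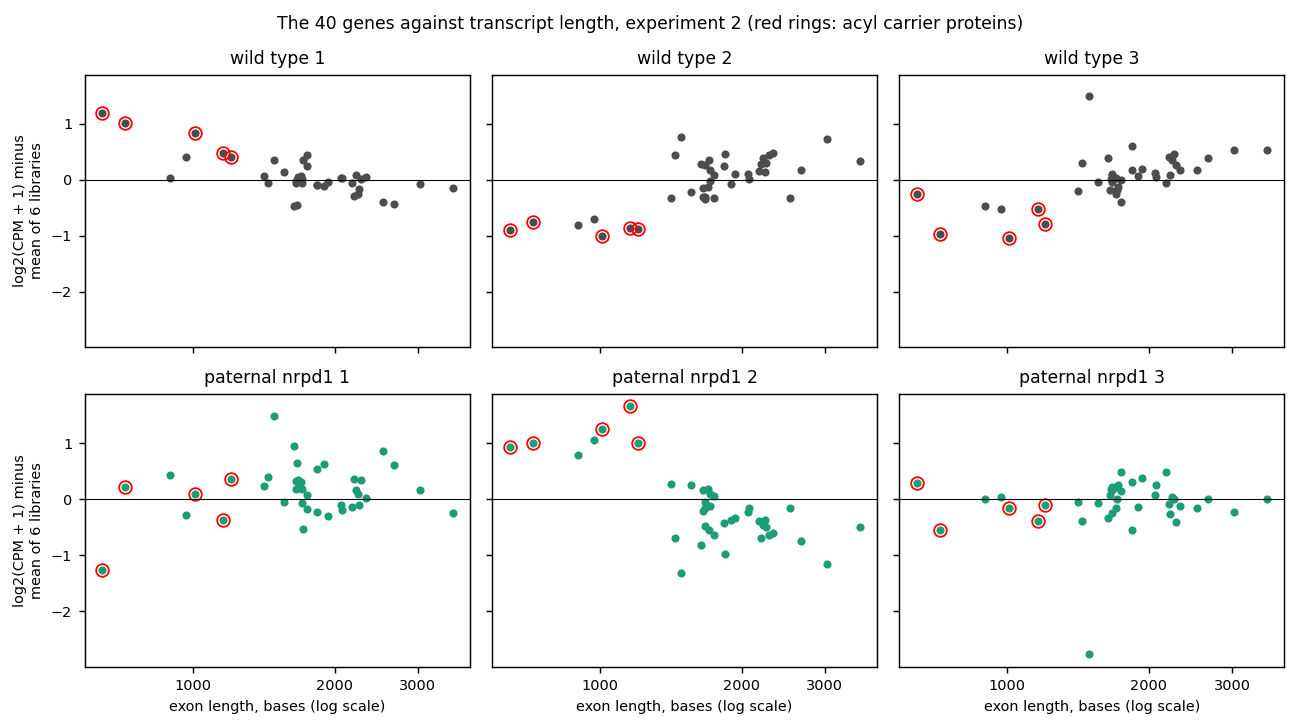
Level of each of the 40 genes in each library of experiment 2, as log2(CPM + 1) minus its mean over the 6 libraries, against exon length on a log scale; red rings mark the acyl carrier proteins. In wild type 1 and paternal nrpd1 2 the short transcripts lie above 0 and the long ones mostly below, with Spearman's rho of -0.65 and -0.57, and in the other 4 libraries rho is between 0.33 and 0.66.

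Among the desaturases of experiment 2, FTM1 had the widest interval of the 40 genes. FTM1 was at 58.0, 78.2 and 129 CPM in the wild-type libraries, against 128, 17.5 and 5.81 in paternal nrpd1 (-0.81 ± 0.96 (SE), interval -3.01 to 1.40). Paternal replicate 1 was as high as the highest wild-type library and the others were lower than any. AT3G02610 was at 39.2, 56.5 and 50.5 CPM against 54.4, 25.1 and 31.2, and AT5G16230 at 24.5, 36.4 and 40.4 against 38.7, 12.8 and 17.6, with the same 2 mutant libraries low. All 6 desaturase differences were below 0 and none passed the test. The group summed to 931, 1133 and 1114 against 1027, 647 and 980.4 CPM, a log2 ratio of -0.26, and -0.16 without the 2 libraries that stood apart, of which paternal replicate 2 is 1 of the low ones here. Other seed transcripts moved in the same libraries: the 9 storage protein genes summed to 186, 2203 and 941 CPM in the wild-type libraries, against 873, 261 and 29.2 in those of the mutant, and the 15 seed coat markers to 437, 379 and 291 against 201, 624 and 779.6, with 0 of 9 and 0 of 14 tested called. The part of these tissues in the desaturase values was not tested.

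The make-up of the desaturase pool, per kilobase, differed more between the experiments than within the wild type of either for SSI2, FTM1, AT5G16240 and both AAD genes. In experiment 1 SSI2 made up 22.8% ± 0.377 (SD, n = 2), AT3G02630 23.0% ± 0.453, FTM1 22.4% ± 0.771, AT5G16230 16.5% ± 1.46, AT3G02610 12.3% ± 0.591 and AT5G16240 2.94% ± 0.446. In experiment 2 SSI2 made up 47.0% ± 0.960 (SD, n = 3), AT3G02630 27.2% ± 2.28, FTM1 9.57% ± 3.34, AT5G16240 7.78% ± 1.56, AT3G02610 5.49% ± 0.467 and AT5G16230 2.97% ± 0.458. Both AAD genes and FTM1 thus took a smaller share, and SSI2, AT5G16240 and AT3G02630 a larger share, in every wild-type library of experiment 2. Age, kit, read length and experiment cannot be told apart in this difference, and AT3G02610 shares 16.0% of its 40-base stretches with other sequence, which bears on the shorter reads. In the mutants SSI2 made up 21.5% to 26.6% in experiment 1 and 37.7% to 59.6% in experiment 2, and FTM1 21.5% to 33.8% and 0.704% to 14.3%.

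**Figure D4:**
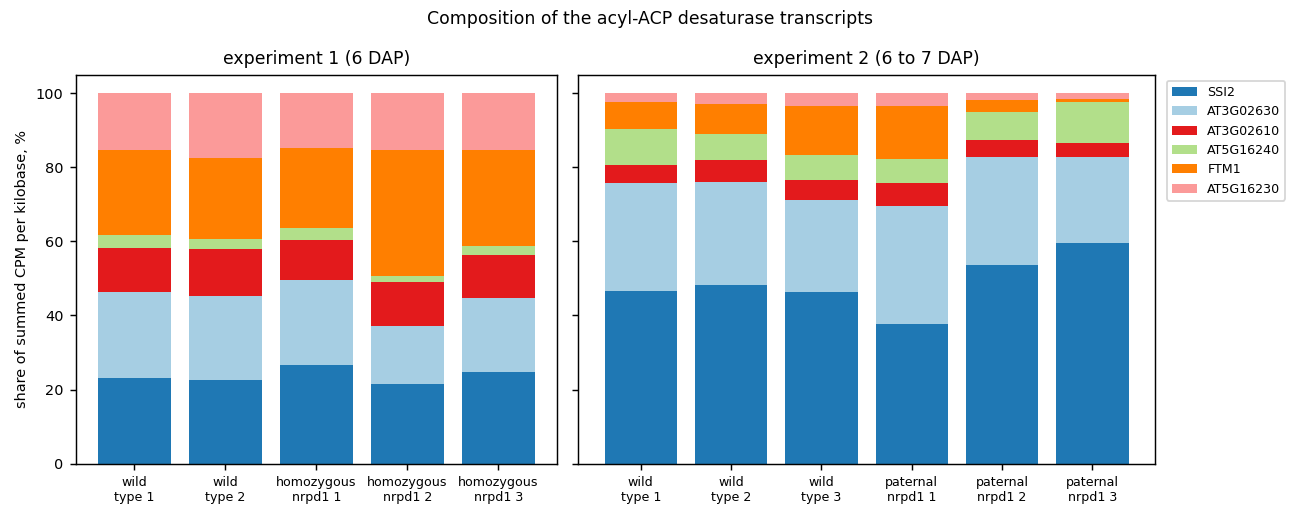
Share of each acyl-ACP desaturase in the summed CPM per kilobase of the 6 genes, for every library of experiment 1 (left) and experiment 2 (right). SSI2 makes up 22.6% to 23.1% in the wild-type libraries of experiment 1 and 46.4% to 48.1% in those of experiment 2, and FTM1 makes up 33.8% in homozygous nrpd1 2 and 0.704% in paternal nrpd1 3.

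No member was called for a difference between the 2 mutant effects. The mutant parent changes together with kit, cycles, read length and age in this comparison. They cannot be told apart in it. In 1 model of the 11 libraries with a term for the difference between the mutant effects, edgeR called 0 of 40 (0.0% of 20078 genes), with 0 at an unadjusted p under 0.05 (7.31% of all genes), and DESeq2 called 0 (0.556% of all genes). The smallest unadjusted p was 0.0876, for AT5G10160, whose log2 difference was larger by 0.90 ± 0.48 (SE) in paternal than in homozygous nrpd1. Its 95% interval was -0.16 to 1.97. With the trend on exon length taken out, the AT5G10160 difference was -0.23 ± 0.18 (SE) in homozygous and 0.30 ± 0.27 (SE) in paternal nrpd1. Without this step the values were -0.09 and 0.82. The model of the difference between the mutant effects was not fitted with that trend taken out.

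Allele-assigned counts gave the share of each gene's transcripts that carried the maternal Ler sequence. The endosperm holds 2 maternal genomes and 1 paternal, so a gene used equally from every copy has a maternal share of 66.7%. Mother and strain, and father and strain, cannot be told apart, since the mother was always Ler. Genes were tested where the mean was at least 20 allele counts, and in experiment 1 where they were not on the holdout list. This left 26 members in experiment 1 and 35 in experiment 2. PDH-E1 ALPHA, AT3G02610 and KCS18 had 0 allele counts in every library of both experiments, FAD2 had 0 in experiment 1 and FAD3 had 0 in experiment 2.

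In wild type more members were called toward the paternal than toward the maternal allele. In experiment 1 edgeR called 10 of 26 members toward the paternal allele (38.5%), where 18.5% of all genes tested were called that way, and 3 toward the maternal allele (11.5%), where 12.2% were. In experiment 2 it called 11 of 35 toward the paternal allele (31.4%, against 12.2% of all genes) and 4 toward the maternal (11.4%, against 9.9%). All genes tested had a mean of at least 20 allele counts but were not matched to the members in these counts. The median member lay at the percentile 97.8 and 96.0 of expression, and more counts allow a smaller departure to be called. The part of count depth in the higher percentage of paternal calls was not tested. Of the 25 members tested in both, 7 were called paternal in both (PKP-ALPHA, LTA2, KASI, AT5G10160, MOD1, AT5G16240 and FaTA) and 2 maternal in both (FTM1 and ACP5), and 14 had means within 5 percentage points of each other. Leaving out 1 wild-type library of experiment 2 gave 7 to 9 paternal calls there in place of 11, with 7 without replicate 3. The share of all genes called in these refits is not given here. Of the 7 genes called in both, LTA2 lost the call without replicate 3, AT5G10160 without replicate 2 or 3, and FaTA without any 1 of the 3.

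The maternal members were a desaturase and a carrier protein. FTM1 was at 76.0% and 76.1% in experiment 1 and 79.1%, 82.2% and 79.0% in experiment 2, with adjusted p = 3.51e-04 and 1.41e-06 by edgeR. ACP5 was at 87.6% and 85.9% and at 84.2%, 84.8% and 84.2% (adjusted p = 9.28e-05 and 1.26e-10). Every wild-type library lay above 66.7% for both genes. ACP1, with enough allele counts in experiment 2 alone, was at 76.5%, 79.2% and 75.7% (adjusted p = 1.14e-06), whereas ACP2 and ACP3 in that experiment were at 66.8%, 66.4% and 67.5% and 68.3%, 67.6% and 70.3% and did not pass the test. ACP5 and ACP1 each overlap an antisense gene, and whether strand was used in counting is not given, so their counts are uncertain. PDAT was at 78.4% and 80.5% in experiment 1 (adjusted p = 0.00625) and at 75.8%, 74.1% and 77.6% in experiment 2, on 177 and 66.0 allele counts per library on average, the latter with adjusted p = 0.108.

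Among the paternal members the size differed widely between the experiments. KASI had a maternal share of 23.1% and 25.8% in experiment 1 and 58.5%, 54.8% and 56.0% in experiment 2, and AT5G10160 one of 22.8% and 18.3% and 63.0%, 61.1% and 59.6%. Both were called in both experiments with all libraries, with adjusted p = 5.41e-05 and 1.23e-04 for KASI and 6.90e-05 and 0.00623 for AT5G10160, but the shares of experiment 1 were lower by more than 30 percentage points. PKP-ALPHA was at 51.3% and 50.9% and at 62.8%, 63.2% and 63.5%, and MOD1 at 53.1% and 54.1% and at 61.8%, 61.9% and 62.3%, on 7131 and 3659 allele counts per library on average for PKP-ALPHA and 7336 and 5142 for MOD1. FaTA was at 60.0% and 59.7% and 60.5%, 62.7% and 64.0%, the nearest to 66.7% of the 7 in experiment 1. The endosperm desaturase AT5G16230 was at 43.7% and 45.9% in experiment 1 (adjusted p = 9.23e-05), and in experiment 2, on 33.5 counts, at a mean of 56.5% ± 6.40 (SD, n = 3). KAS III, tested in experiment 2 alone, was at 56.1%, 54.5% and 53.9% (adjusted p = 1.95e-07). How reads were assigned to alleles is not given in the sources used here, and its part in the differences between experiments was not tested. AT5G10160 and AT5G16230 also overlap an antisense gene each, so their counts are uncertain in the same way as those of ACP5.

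**Figure D5:**
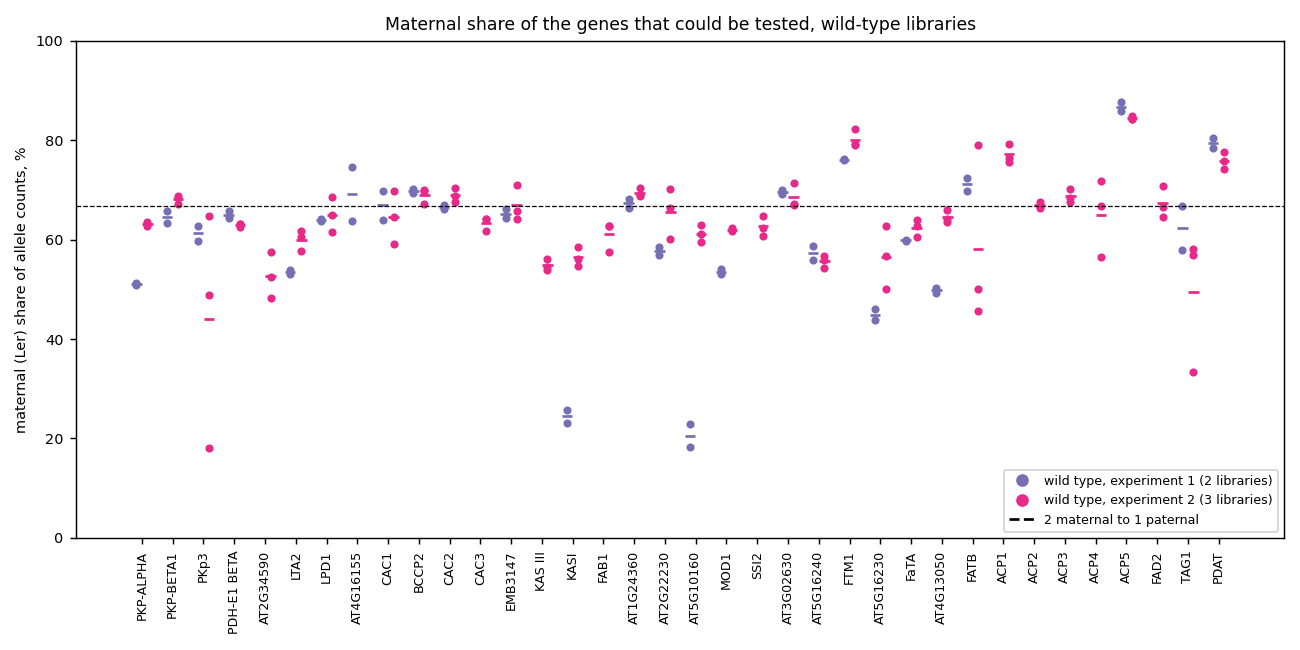
Maternal share of allele counts in each wild-type library (points) and its mean (bars) for the members that could be tested, in experiment 1 (purple) and experiment 2 (pink); the dashed line marks 2 maternal to 1 paternal genome. FTM1 and ACP5 lie above the line in both experiments, and KASI and AT5G10160 lie between 18.3% and 25.8% in experiment 1 and between 54.8% and 63.0% in experiment 2.

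No member's maternal share passed the test between mutant and wild type. In homozygous nrpd1 edgeR called 0 of 26 (0.107% of all genes were called), with 2 at an unadjusted p under 0.05 (7.71% of all genes). Of the 26 differences 23 were above 0 (88.5%, against 84.9% of all genes), with a median of log2 0.17 against 0.33 for all genes. The median share of all genes was itself higher in these libraries, at 70.5%, 75.9% and 68.8% against 66.9% and 67.2% in wild type. Every mutant library lay above wild type for 9 members (31.4% of all genes) and below for 0 (1.45%), and after subtracting each library's median share for 2 (10.2%) and 9 (13.9%). The 2 members with an unadjusted p under 0.05 were AT5G10160, at 22.8% and 18.3% in the wild-type libraries, against 32.4%, 26.4% and 28.4% in homozygous nrpd1 (0.67 ± 0.24 (SE) on the log2 ratio, unadjusted p = 0.0153, adjusted p = 0.592), and ACP5, at 87.6% and 85.9% and 88.8%, 93.1% and 91.8% (adjusted p = 0.592). After the median was subtracted, MOD1 (53.1% and 54.1% against 60.0%, 65.0% and 57.3%) and AT5G16230 (43.7% and 45.9% against 51.1%, 56.4% and 49.6%) were the 2 that still lay above wild type. In paternal nrpd1 edgeR called 0 of 35 (0.0678% of all genes), with 1 unadjusted (5.25%), and every mutant library lay above wild type for 5 members (7.54%) and below for 1 (3.68%). The 1 below was KASI, at 58.5%, 54.8% and 56.0% in the wild-type libraries, against 50.7%, 53.6% and 53.5% in paternal nrpd1, with adjusted p = 0.984 by edgeR. Among the 5 above, AT5G16240, a desaturase of the paternal set, was at 56.6%, 54.4% and 56.0% and 63.1%, 59.2% and 59.7% (adjusted p = 0.970).

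The 7 members on the holdout list were left out of the tests of experiment 1, and their allele counts are given as a description. The shares given for them are those of Ler counts. In homozygous nrpd1, loss of maternal transcripts and Col sequence in the mother at these loci cannot be told apart. Neither was tested. ACP2 had a Ler share of 66.9% and 68.2% in wild type. In homozygous nrpd1 it was 0.0373% in the first library and 0% in the others. There 0 of 1968 and 0 of 3016 counts allow up to 0.152% and 0.0995%. ACP3, its neighbour on chromosome 1, was at 67.9% and 68.9% in wild type and at 0.104% in homozygous nrpd1 replicate 2, with 0 of 1234 and 0 of 1511 counts in the others, which allow up to 0.243% and 0.199%. KAS III was at 47.1% and 44.5% in wild type and at 0.0613% in replicate 2 of the mutant, with 0 of 2418 and 0 of 2685 counts in the others, which allow up to 0.124% and 0.112%. In these 3 genes nearly every allele count of homozygous nrpd1 was therefore Col. KAS III lies 0.160 megabases from NRPD1 on chromosome 1, and ACP2 and ACP3 lie 2.96 and 2.95 megabases from it. SSI2, on chromosome 2, was at 65.7% and 48.4% in the wild-type libraries, against 34.5%, 43.4% and 0.608% in the mutant, so the mutant libraries differed among themselves. FAB1 was at 67.4% and 34.1% and 0.210%, 36.1% and 0.459%, and CAC3 at 26.3% and 46.8% and 33.3%, 52.4% and 0% on 59.8 counts per library on average, both with wild-type libraries that disagreed. AT2G34590, an E1 beta subunit on chromosome 2, was at 64.0% and 64.0% and 69.4%, 71.0% and 65.6%, the 1 listed member above wild type in every mutant library. In experiment 2, with a Ler wild-type mother, the paternal nrpd1 shares of ACP2 (69.7%, 67.4% and 67.8%) and KAS III (53.3%, 53.4% and 57.7%) overlapped those of wild type.

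No gene around the route was called by edgeR. Of 15 other genes of fatty acid synthesis, 8 of plastid carbon supply, 4 of fatty acid elongation and 12 of glycerolipid assembly, it called 0 in either experiment, with 2, 0, 1 and 2 at an unadjusted p under 0.05 when both parents were mutant. The same lists gave 1, 1, 1 and 0 in paternal nrpd1. DESeq2 called 1 gene higher in homozygous nrpd1 in each of the last 2 lists and 0 otherwise. They were KCR1, a ketoacyl-CoA reductase of elongation, at 189 and 199.9 CPM in wild type against 235, 234 and 234, and LPLAT2, which acylates lysophospholipids, at 58.2 and 57.4 against 93.6, 75.7 and 94.95. Of the 10 regulators of oil synthesis, 9 were tested and 0 called by edgeR or DESeq2, with 3 and 0 at an unadjusted p under 0.05. Their log2 differences were above 0 for 4 and below 0 for 5 in homozygous nrpd1, and for 3 and 6 in paternal nrpd1. MYB118, a regulator of endosperm desaturases, was at a mean of 329 CPM against 262 in experiment 1, a log2 difference of -0.33 ± 0.11 (SE) with adjusted p = 0.378 by edgeR. In experiment 2 it was at 153 against 104 (-0.56 ± 0.30, adjusted p = 0.624). WRI1 was at a mean of 203 CPM against 165 in experiment 1 (-0.30 ± 0.19, adjusted p = 0.559) and 249 against 232 in experiment 2 (-0.10 ± 0.39, adjusted p = 0.934). In experiment 1 WRI1 was not among the 4 highest regulators in wild type, which were MYB118, NF-YB6, FUS3 and ABI3. NF-YB6, FUS3 and ABI3 differed there by -0.19 ± 0.07, 0.02 ± 0.13 and 0.03 ± 0.13 (SE). The oil body proteins, which coat the oil stored by the route, gave 6 of 6 tested log2 differences above 0 in homozygous nrpd1 and 6 of 6 below 0 in paternal nrpd1, with 0 called in each by edgeR or DESeq2, 1 and 2 at an unadjusted p under 0.05, and medians of 0.33 and -1.08. In experiment 1 homozygous nrpd1 replicate 2 stood alone: the 7 genes summed to 6385 and 6734 CPM in wild type, against 6661, 10495 and 6787. In experiment 2 the 7 genes summed to 5645, 3860 and 3111 CPM in wild type, against 4743, 3964 and 1667 in paternal nrpd1, with overlapping groups. OLEO1, an oleosin, was at 2029.5 and 2129 CPM against 2077, 3347 and 2123 in experiment 1 (0.27 ± 0.23, adjusted p = 0.643) and at a mean of 345 against 116 in experiment 2 (-1.57 ± 0.44, adjusted p = 0.616). The 14 endosperm markers summed to 793 to 1192 CPM in experiment 1 and 1096 to 2222 in experiment 2. Of these, 10 passed the filter on low counts in each experiment, and 1 was at 0 in every library of experiment 2. The sum of experiment 1 rested mainly on SUC5, ALE1 and AT1G50650, at wild-type means of 587, 231 and 208 CPM. The 15 embryo markers summed to 279 to 336 and 60.8 to 196 CPM, with 2 of them at 0 throughout. Seed coat markers summed to 1043 to 1560 and 201 to 779.6 CPM. Heat shock genes summed to 259 CPM in homozygous nrpd1 replicate 2, against 103 to 127 in the rest of experiment 1, and to 806 CPM in paternal nrpd1 replicate 2, against 67.4 to 165 in the rest of experiment 2. None of the genes on the embryo, endosperm, seed coat, storage protein or heat shock lists was called by edgeR. At an unadjusted p under 0.05 these lists held 0, 1, 4, 2 and 2 genes in experiment 1 and 2, 1, 1, 3 and 4 in experiment 2. DESeq2 called 1 of them, the seed coat gene BAN (anthocyanidin reductase), at 21.7 and 13.2 CPM in wild type against 215, 168 and 88.9 in homozygous nrpd1 (3.17 ± 0.46 and adjusted p = 0.101 by edgeR). LPLAT2 and BAN are named here after their values were seen. KCR1, LPLAT2 and BAN are on the holdout list, as are KAS III and SSI2.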

How the data were processed

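Raw counts of reads per gene were deposited for every library, from all reads and from those assigned to the Col or Ler allele; the authors' steps are known only from the submitters' processing notes, which name cutadapt, Trim Galore, FastQC, TopHat, HTSeq and TAIR10. Allele assignment and use of strand are not given in the sources used here, so counts of the 12 members that overlap an antisense gene are uncertain. A further deposited file, of unit other, lists 5081 genes. Summary lines, 11.6% to 13.3% of experiment 2 counts, were left out.

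Totals were tested with edgeR 4.0.16 (TMM, filterByExpr, quasi-likelihood, Benjamini-Hochberg over all genes, threshold 0.05) in R 4.3.3, within each experiment. Shares were tested on Ler and Col counts with a term per library, at a mean of at least 20 allele counts. DESeq2 1.42.0 and limma 3.58.1 gave alternatives. The scripts were tested on simulated data. All 40 members may be named; of the other lists, genes called and the 4 highest in wild type per experiment. The members and lists were chosen with earlier results of these data known. The trend on exon length was added after seeing the data. All p-values measure the spread between these libraries. Limits from 0 counts use 3 counts and, like intervals of single shares, cover counting error only. Of the experiment 1 libraries' features, 72 to 177 had more allele than total counts and were used as deposited. The third promoter window with an AW-box is not reported here.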

Additional observations from a re-analysis of the deposited data

Results flagged for a closer look

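The allele counts of 4 members on the holdout list lie outside the comparisons of shares and stood above the Col share of every wild-type library. In homozygous nrpd1 the mean Col share was 99.9796% for KAS III, against 54.2% ± 1.81 (SD, n = 2) in wild type. It was 99.9876% for ACP2, against 32.4% ± 0.971, and 99.9655% for ACP3, against 31.6% ± 0.709. For SSI2 it was 73.8479% ± 22.6 (SD, n = 3), against 42.9% ± 12.2, with the mutant libraries far apart. These differences were not part of the tested shares, because listed genes were left out there.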

How the results depend on the processing

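The count of members called in total expression stayed at 0 in each mutant under DESeq2, upper-quartile factors, no filter on low counts, 1 fit of the 11 libraries, the replicate block, each library left out and an added offset for exon length. It also stayed at 0 in homozygous nrpd1 with listed genes left out, and in paternal nrpd1 without both libraries that stood apart. For the difference between mutants, DESeq2, upper-quartile factors, no filter and each library left out were run, with 0 called in each. DESeq2 called 524 genes in all in homozygous nrpd1 (2.53%), against 62 by edgeR. For allele shares, keeping the listed genes gave 3 members called lower in homozygous nrpd1, against 0 without them, since it lets ACP2, ACP3 and KAS III into the test. The share of all genes called is not given for that fit, nor for the wild-type fits below with 1 library left out. These member counts therefore cannot be set against all genes. The members called toward the paternal allele in wild type of experiment 2 numbered 7 to 9 when 1 library was left out, against 11 with all, and 7 without replicate 3. Those that lost the call in 1 or more of these were PDH-E1 BETA, LTA2, FAB1, AT5G10160 and FaTA, and AT1G24360 lost its maternal call. Leaving out a wild-type library of experiment 1 was not run for the test against 66.7%, since 1 library leaves no residual degrees of freedom. Same-numbered libraries did not pair: their deviations correlated at 0.21 and 0.32 in experiment 1, with 2 pairs only, and at -0.46, -0.63 and 0.11 in experiment 2, so the replicate block, with 0 members called in each comparison, is a check and not a paired design. With 2 or 3 libraries a group, the median SE of 0.35 in experiment 2 limits what could be detected there.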
